A study of Mus musculus with 9 samples.

Results

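The genes described here are the histone genes of the mouse whose symbols begin with Hist1h to Hist4h, the naming used for the replication-dependent histone genes. The choice by symbol took 68 of the 24062 genes of the deposited count table: 6 of the H1 class, 18 of H2a, 19 of H2b, 12 of H3 and 13 of H4. The H2b members include Hist3h2bb-ps, which is annotated as a processed pseudogene. The 68 genes were followed in 9 RNA-seq libraries of C57BL/6 mouse embryonic fibroblasts, primary cells grown from embryos, harvested 10 days after lentiviral transduction. The control group (3 libraries) carried the empty vector, the p21 group (3 libraries) overexpressed p21 and the p16 group (3 libraries) overexpressed p16, and all 3 groups therefore went through transduction. The label for cell status reads senescent in every group, the empty vector controls included. Which promoter drives the vectors, and what sequence they carry, is not stated in the labels. The labels do not say whether the 3 libraries of a group came from separate cultures or embryos, so the p-values rest on library-to-library spread alone. Replicate 3 of each group differed from the others in Xist and Ddx3y, as given below, and for replicates 1 and 2 the spread may be technical. The p21 and p16 comparisons share their control libraries and are given side by side.

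Replication-dependent histones package newly made DNA, and their genes are known for transcription that peaks in S phase. Histones H2A, H2B, H3 and H4 form the nucleosome core, and H1 binds the linker DNA between nucleosomes. Their mature mRNAs end in a conserved stem-loop, bound by the protein of Slbp, in place of a poly(A) tail, and are degraded when replication stops. p21 and p16 both inhibit cyclin-dependent kinases and can arrest the cell cycle. The labels name the library kit and give total RNA as the molecule; they state no selection step. From general knowledge the kit selects polyadenylated RNA and does not mark the strand, so the levels below may be those of histone transcripts with a tail, and how much histone mRNA without a tail entered the libraries was not measured.

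The stem-loop is shown first, because it is the element that sets these mRNAs apart. Of the 68 genes, 45 hold a stem-loop in their main annotated transcript (GENCODE M21, GRCm38). Sequence past the annotated ends was not searched, so members without a stem-loop here may hold one there. The 4-base loop is in capitals, and the forms below differ in the loop or in the stem around it.
Form of 25 members, among them Hist1h1c, Hist1h2ab, Hist1h2ac and Hist1h3b: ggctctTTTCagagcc
Form of 7 H4 members, among them Hist1h4h: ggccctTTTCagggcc
Form of 6 members, among them Hist1h3c and Hist1h3f: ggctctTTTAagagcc
Form of Hist1h4i and Hist2h4: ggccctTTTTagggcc
Form of Hist1h4b and Hist1h4j: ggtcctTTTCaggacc
The first form occurred in members of H1 (3), H2a (10), H2b (7) and H3 (5) and in no H4 member with an annotated stem-loop. The last form belongs to Hist1h4b, the 1 of the 36 tested members called lower in p21 cells.

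Promoter windows of 300 bases, from 250 bases before to 50 after the start, were taken from RefSeq on GRCm38.p6 for 61 of the 68 genes. They were searched on both strands for TATAAA (the TATA box), CCAAT and ATTTGCAT (the octamer). TATAAA was found in 35 windows, CCAAT in 52 and ATTTGCAT in 14, of which 7 were of H2a and 7 of H2b genes. Over all 32851 RefSeq promoters the shares were 13.6%, 37.4% and 1.74%. H2a and H2b genes that start close together on opposite strands have overlapping windows. A site there can be counted for both genes, as the octamer of Hist1h2ah and Hist1h2bk was, so the counts are not of separate sequences. A match describes these letters and is not evidence of a bound site. The 3 windows below belong to the H2a and H3 members with the highest fold changes and to the start region that the H2a gene Hist1h2ac shares with Hist1h2bc, the H2b gene with the most counts. Matches to the 3 motifs on either strand are in capitals, with the octamer and CCAAT appearing as ATGCAAAT and ATTGG where they lie on the other strand.
Hist1h2ab: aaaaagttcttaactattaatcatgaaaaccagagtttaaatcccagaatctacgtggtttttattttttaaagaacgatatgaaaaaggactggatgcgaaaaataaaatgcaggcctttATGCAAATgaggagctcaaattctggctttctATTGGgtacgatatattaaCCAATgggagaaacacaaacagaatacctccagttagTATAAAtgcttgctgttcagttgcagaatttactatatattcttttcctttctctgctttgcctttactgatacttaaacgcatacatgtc
Hist1h3b: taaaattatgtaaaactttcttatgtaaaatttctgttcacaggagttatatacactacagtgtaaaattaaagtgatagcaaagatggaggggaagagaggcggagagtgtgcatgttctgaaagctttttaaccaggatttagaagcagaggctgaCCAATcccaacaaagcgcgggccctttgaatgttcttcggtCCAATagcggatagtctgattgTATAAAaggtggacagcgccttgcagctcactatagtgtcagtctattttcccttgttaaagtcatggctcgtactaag
Hist1h2ac: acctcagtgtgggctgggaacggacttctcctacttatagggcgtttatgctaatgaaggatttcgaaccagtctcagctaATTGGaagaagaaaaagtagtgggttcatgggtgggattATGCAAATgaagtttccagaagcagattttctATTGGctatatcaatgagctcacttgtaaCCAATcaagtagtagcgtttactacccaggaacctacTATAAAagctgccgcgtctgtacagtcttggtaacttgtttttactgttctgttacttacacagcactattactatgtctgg
The window of Hist1h2ab lies at chr13:23750838-23751137 (plus strand), that of Hist1h3b at chr13:23752095-23752394 (plus strand) and that of Hist1h2ac at chr13:23683910-23684209 (minus strand). The last also holds the annotated start of Hist1h2bc at chr13:23684199, on the opposite strand. The TATAAA and CCAAT letters are in all 3 windows, and the octamer is in those of both H2a genes. These windows do not stand for all members that rose: that of Hist1h4h holds none of the 3 motifs. CCAAT was found in 3 of 12 H4 windows. In H2b it was found in 5 of 5 windows of genes called higher in p21 cells and 11 of 11 of the other members.

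Library totals ran from 56864342 to 76054820 counts, and levels are given in CPM, the unit that divides a count by the TMM-scaled library size and so allows comparison between libraries. Cdkn1a, which encodes p21, was at 399, 383 and 317 CPM in the control libraries, 1218, 1087 and 1085 CPM in the p21 libraries and 429, 435 and 394 CPM in the p16 libraries. Cdkn2a, which encodes p16 and p19Arf, was at 60.8, 68.8 and 59.6 CPM in the control libraries, 113, 94.3 and 79.6 CPM in the p21 libraries and 1069, 1036 and 944 CPM in the p16 libraries. The p21 libraries were the highest for Cdkn1a and the p16 libraries for Cdkn2a, as their labels say. Of 10 fibroblast markers all were detected, with a summed level of 25828 to 37048 CPM over the 9 libraries, although Dcn and Lum did not exceed 5.22 and 1.56 CPM. Replicate 3 of each group held Xist at 397, 158 and 262 CPM (control, p21, p16), against at most 1.34 CPM in the other libraries, and Ddx3y, which is Y-linked, at 1.10, 10.8 and 1.26 CPM against 50.1 to 68.5 CPM.

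Histone genes as a whole took a small share of each library: 0.00824% to 0.00880% of the counts in control, 0.0204% to 0.0219% in p21 and 0.0120% to 0.0126% in p16 libraries. The sum over the 68 genes was 84.5 ± 3.43 CPM (mean ± SD, n = 3) in control cells. It was 213.2 ± 9.57 CPM in p21 cells, 2.52-fold the control value, and 123.7 ± 2.49 CPM in p16 cells, 1.46-fold the control value. No library of one group reached the sum of another group. These are bulk RNA libraries, in which fewer cells of a type and less RNA per cell cannot be told apart. Hist1h2bc alone gave 42.4% of the summed level, and 36.0% to 45.1% in single libraries.

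The class sums of p21 cells were 1.92-fold to 3.67-fold those of control cells. In the order control, p21, p16, the H3 sum was 4.07 ± 0.595, 14.9 ± 1.34 and 5.79 ± 0.185 CPM (3.67-fold and 1.42-fold the control). The H2b sum was 36.9 ± 1.28, 105.5 ± 9.44 and 59.3 ± 1.58 CPM (2.86-fold and 1.61-fold), and the H2a sum 10.8 ± 0.612, 27.0 ± 1.45 and 14.7 ± 0.432 CPM (2.51-fold and 1.36-fold). The linker class H1 was at 25.9 ± 1.58, 52.5 ± 4.05 and 36.6 ± 1.77 CPM (2.03-fold and 1.41-fold). The H4 sum was 6.87 ± 0.858, 13.2 ± 1.69 and 7.38 ± 0.389 CPM (1.92-fold and 1.07-fold), and H4 was the only class in which the p16 and control libraries overlapped. These sums describe the classes, carry no test and lean on few genes: Hist1h1c gave 93.4% of the H1 sum, Hist1h2bc 88.6% of H2b, Hist3h2a 56.0% of H2a, Hist1h3b 55.6% of H3 and Hist1h4i 50.9% of H4.

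**Figure D1:**
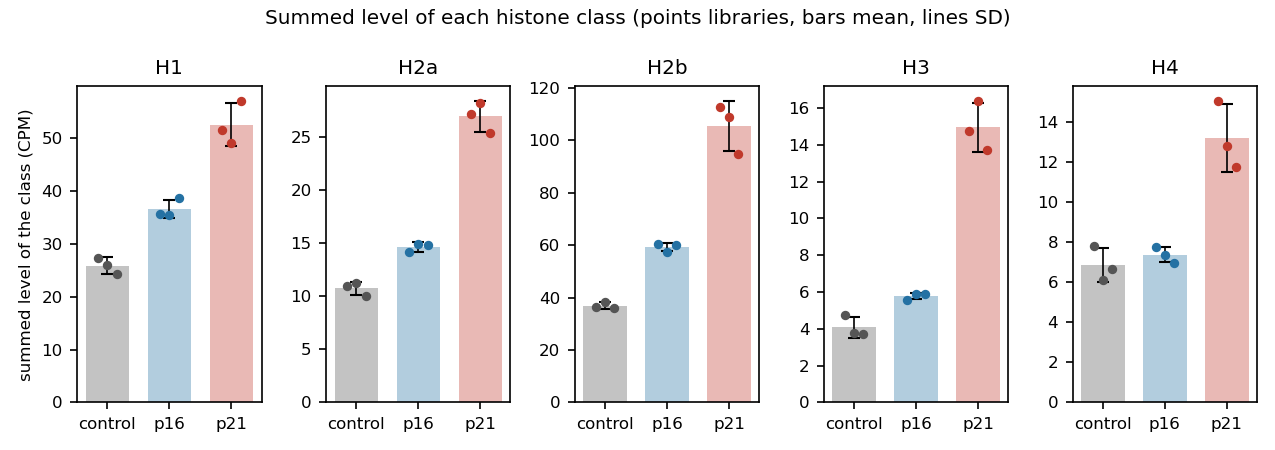
Summed level of each histone class in CPM (vertical axes, starting at 0 and scaled separately) in control, p16 and p21 cells; points are libraries, bars the mean and lines the SD over 3 libraries. The p21 libraries lie above all others in each class, and the p16 libraries lie above the controls in each class except H4.

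Of the 68 genes 36 passed the filter on low counts and were tested in the fit reported here, and 32 did not pass. The limit was 0.143 CPM, about 10 counts, in at least 3 libraries; 29 of the 36 reached it in all 3 controls and none passed through the p21 libraries alone. Among the 32 genes under the filter 8 had no count in any library, and the highest count in any library was 20. Together they held 105 to 126 counts in a control library, 60 to 81 in a p21 library and 57 to 64 in a p16 library, or 1.60 ± 0.157, 1.02 ± 0.180 and 0.919 ± 0.114 CPM. The summed level of these genes was highest in the control libraries, whereas the sum over all members was lowest there, and the sum carries no test because low values chose the genes. The fit with no filter tested the 24 of them that had counts and DESeq2 tested 17 in p21 minus control, and each called 0 higher and 1 lower in p21 cells. That gene was the H2b gene Hist3h2ba (singled out after its values were seen), which had 10, 10 and 8 counts in the control libraries, 0, 0 and 0 in the p21 libraries and 0, 0 and 2 in the p16 libraries. Its adjusted p for p21 minus control was 0.0119 in edgeR without the filter and 0.00379 in DESeq2. Without the filter edgeR also called 1 of the 24 higher in p21 than in p16 cells, Hist1h2af (adjusted p = 0.0344), with 5, 5 and 4 counts in the control libraries, 4, 8 and 4 in the p21 libraries and 0, 0 and 0 in the p16 libraries.

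Tested with edgeR's quasi-likelihood test and Benjamini-Hochberg adjustment over 14572 genes at a threshold of 0.05, 20 of the 36 histone genes rose in p21 cells, 1 fell and 15 were not called. Over all genes 39.9% were called in this comparison, 19.3% higher and 20.7% lower. Of the 20 genes 18 were at least 2-fold higher, against 3.41% of all genes. Counted by libraries alone, 21 genes had all 3 p21 libraries above all 3 controls and 1 had them below, against 24% and 25.7% of all genes. The median log2 fold change of the 36 genes was 0.97, from -1.41 to 2.97, and that of all genes was -0.011. By class, 3 of 5 H1 genes, 4 of 7 H2a, 6 of 10 H2b, 4 of 8 H3 and 3 of 6 H4 genes rose.

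In p16 cells 9 of the 36 genes rose, none fell and 27 were not called. Over all genes 7.22% were called, 3.57% higher and 3.65% lower, and 6 of the 9 genes were at least 2-fold higher against 0.419% of all genes. At an unadjusted p below 0.05 edgeR's test had 11 higher and 2 lower, and DESeq2 called 10 higher and 0 lower. DESeq2 called 1820 of all genes, against 1052 by edgeR. All genes at an unadjusted p below 0.05 were not counted. At 5 of the 9 genes the call was kept in each alternative fit that tested the gene; Hist1h2ac, Hist1h2ad, Hist1h2be and Hist1h2bg lost it when libraries were left out. The count was 5 without control replicate 2, without any 1 p16 library, or with the 6 libraries compared fitted alone. Calls over all genes fell too, from 1052 to 375, 222 to 425 and 555 in the same order. The p16 libraries lay above all controls for 12 genes and below them for 2, against 13.6% and 15.1% of all genes. The median log2 fold change was 0.18, and -0.0097 over all genes. The genes that rose were 1 of 5 in H1, 3 of 7 in H2a, 3 of 10 in H2b, 1 of 8 in H3 and 1 of 6 in H4.

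Tested against each other, p21 cells were higher than p16 cells at 15 of the 36 genes and lower at none (20 and 0 at an unadjusted p below 0.05 in edgeR, 16 and 0 called by DESeq2). Over all genes 12.8% were called, 6.19% higher and 6.64% lower in p21 than in p16 cells. DESeq2 called 2572 of all genes, against 1870 by edgeR, and all genes at an unadjusted p below 0.05 were not counted. At least 2-fold differences were called at 8 genes, against 0.748% of all genes, and the libraries did not overlap at 20 genes, all higher in p21, against 17.5% of all genes. The median log2 fold change was 0.82, and -0.0066 over all genes. The p16 mean lay between those of control and p21 cells at 18 of the 20 genes called higher in p21 cells, Hist1h1e and Hist1h4i being the others. These 20 genes were chosen for p21 values above the same controls, which favours a p16 mean in between. The share over all genes called higher in p21 cells was not counted. Without p21 replicate 1 the number of histone genes called was 9, and the number over all genes fell from 1870 to 600. With the replicate number as a block 18 genes were called higher, the 3 added being Hist1h3e, Hist1h3i and Hist1h4a (adjusted p = 0.0468, 0.0468 and 0.0255, against 0.0679, 0.0578 and 0.0548 without it). Without replicate 3 of every group, the libraries that stood apart in Xist and Ddx3y, 18 histone genes were called for p21 against control. There were 5 for p16 against control and 13 for p21 against p16. Over all genes the calls were 3496 with the block for p21 against p16, and 5481, 593 and 1804 without replicate 3.

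**Figure D2:**
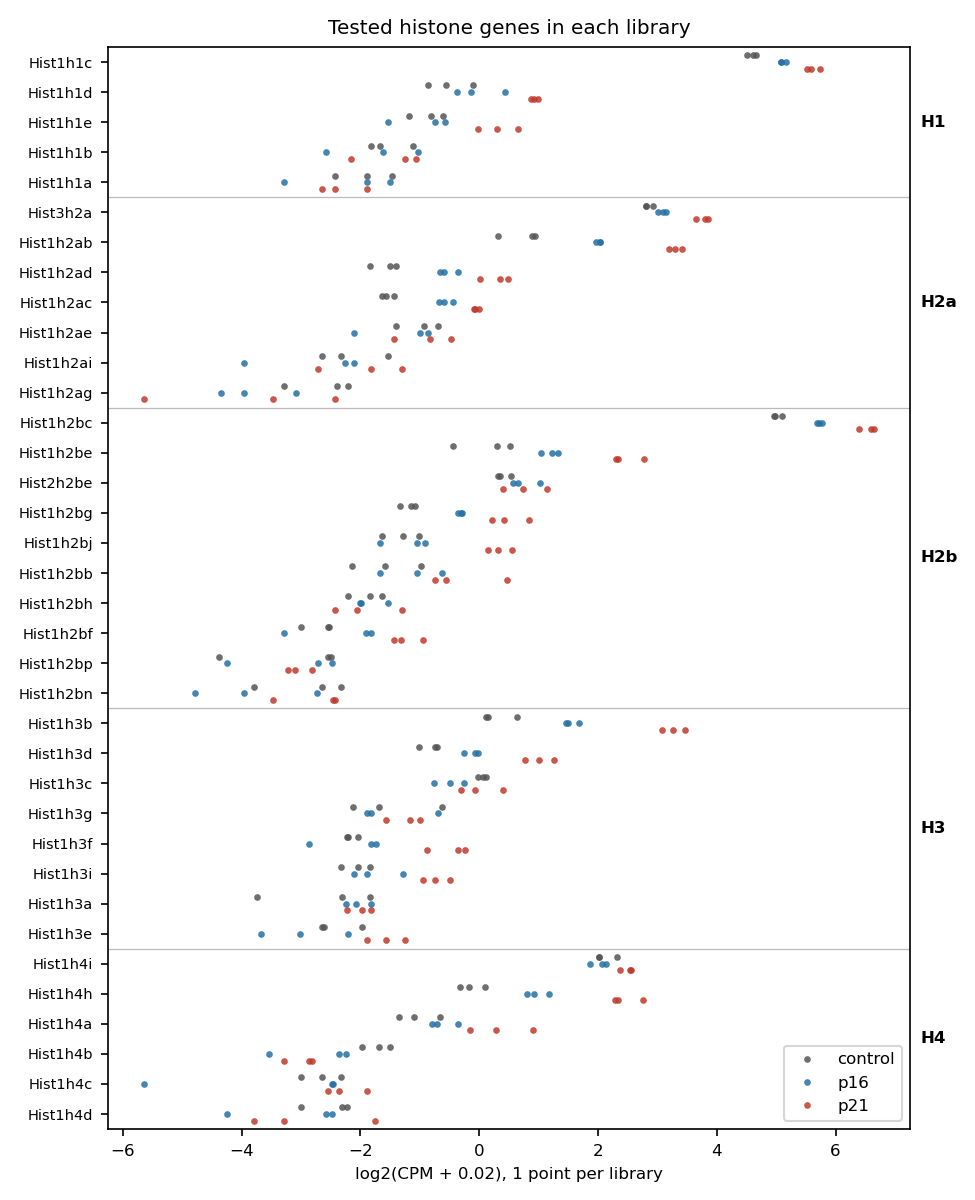
Level of each of the 36 tested histone genes in each of the 9 libraries, as log2(CPM + 0.02) on the horizontal axis, 1 point per library and genes grouped by class. Hist1h2bc and Hist1h1c are the highest rows, and p21 points lie to the right of the control points in 21 rows and to the left in 1.

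The linker histone gene with the most counts was Hist1h1c (chr13:23738808-23740367, plus strand, 1 exon). It was at 25.1, 24.3 and 22.7 CPM in the control libraries, 47.9, 45.6 and 53.01 CPM in the p21 libraries and 33.96, 33.7 and 35.96 CPM in the p16 libraries. The 3 groups did not overlap, with p16 between control and p21. Hist1h1c was 2.03-fold higher (log2 fold change 1.02 ± 0.0654 SE, adjusted p = 1.14e-05) in p21 and 1.43-fold higher (log2 fold change 0.52 ± 0.0652 SE, adjusted p = 0.00523) in p16 than in control cells by edgeR's quasi-likelihood test, and 1.41-fold higher (log2 fold change 0.50 ± 0.0647 SE, adjusted p = 0.00206) in p21 than in p16 cells. Hist1h1d, another linker histone gene, was at 0.913, 0.659 and 0.53 CPM in the control libraries, 1.87, 1.97 and 1.8 CPM in the p21 libraries and 0.885, 0.748 and 1.32 CPM in the p16 libraries. All p21 libraries were above all others, while p16 and control overlapped. Hist1h1d was 2.68-fold higher (log2 fold change 1.42 ± 0.261 SE, adjusted p = 0.00223) in p21 cells, and its p16 value was not called (log2 fold change 0.49, adjusted p = 0.295). Its call between p21 and p16 (log2 fold change 0.93, adjusted p = 0.0421) was lost without any 1 of the 3 p21 libraries, p16 replicate 1, p16 replicate 2 or control replicate 2.

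Hist1h1e (chr13:23620629-23622558, minus strand) was at 0.548, 0.632 and 0.418 CPM in the control libraries, 1.21, 0.964 and 1.56 CPM in the p21 libraries and 0.574, 0.323 and 0.654 CPM in the p16 libraries. Only the p21 libraries stood apart. The gene was 2.32-fold higher (log2 fold change 1.22 ± 0.304 SE, adjusted p = 0.0108) in p21 cells and was not called in p16 cells (log2 fold change -0.05, adjusted p = 0.95). Without replicate 3 of every group the p21 call was lost (adjusted p = 0.0700). The annotated span of Hist1h2be overlaps Hist1h1e on the same strand, so reads there could be assigned to either or dropped. The other linker genes tested, Hist1h1b and Hist1h1a, had overlapping groups, with log2 fold changes of 0.08 (adjusted p = 0.907) and -0.44 (adjusted p = 0.515) in p21 cells.

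Among the H2A genes, Hist1h2ab (chr13:23751126-23751598, plus strand, 1 exon) had the largest fold change. It was at 1.89, 1.83 and 1.23 CPM in the control libraries, 9.8, 10.7 and 9.16 CPM in the p21 libraries and 4.08, 3.9 and 4.06 CPM in the p16 libraries. Each group of libraries was clear of the others, p16 lying in the middle. Hist1h2ab was 5.99-fold higher (log2 fold change 2.58 ± 0.156 SE, adjusted p = 1.01e-05) in p21 and 2.43-fold higher (log2 fold change 1.28 ± 0.155 SE, adjusted p = 0.00486) in p16 than in control cells, and 2.46-fold higher (log2 fold change 1.30 ± 0.146 SE, adjusted p = 0.00117) in p21 than in p16 cells. Hist3h2a (chr11:58954685-58956830, plus strand), from the small cluster on chromosome 11, took more counts in control cells. Its level was 7.0, 7.6 and 6.97 CPM in the control libraries, 13.98, 14.5 and 12.6 CPM in the p21 libraries and 8.01, 8.83 and 8.55 CPM in the p16 libraries. The p16 libraries were all slightly above the controls, and the p21 libraries were above both. Hist3h2a was 1.9-fold higher (log2 fold change 0.93 ± 0.0817 SE, adjusted p = 4.09e-05) in p21 cells, and the p16 difference was not called (log2 fold change 0.24, adjusted p = 0.114). Per kilobase of annotated exon the mean level of Hist1h2ab in p21 cells was 20.9 CPM per kb against 6.37 for Hist3h2a, and 3.49 against 3.35 in control cells.

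Hist1h2ad was at 0.261, 0.357 and 0.335 CPM in the control libraries, 0.992, 1.26 and 1.38 CPM in the p21 libraries and 0.639, 0.763 and 0.61 CPM in the p16 libraries. Hist1h2ac was at 0.3, 0.316 and 0.349 CPM in the control libraries, 0.936, 0.92 and 0.98 CPM in the p21 libraries and 0.639, 0.601 and 0.712 CPM in the p16 libraries. In both of these H2A genes the 3 groups did not overlap. Hist1h2ad was 3.79-fold higher (log2 fold change 1.92 ± 0.236 SE, adjusted p = 0.000245) and Hist1h2ac 2.93-fold higher (log2 fold change 1.55 ± 0.205 SE, adjusted p = 0.000362) in p21 than in control cells. In p16 cells Hist1h2ad was 2.11-fold higher (log2 fold change 1.08 ± 0.241 SE, adjusted p = 0.0295) and Hist1h2ac 2.02-fold higher (log2 fold change 1.01 ± 0.208 SE, adjusted p = 0.0219). These p16 calls were lost in 8 and 7 alternative fits, with adjusted p up to 0.116 and 0.113, among them the fits without any 1 p16 library and without control replicate 1 or 2, for Hist1h2ad also without control replicate 3. Hist1h2ac was the gene called in both overexpressing groups that was not called between p21 and p16 (log2 fold change 0.54, adjusted p = 0.1). Hist1h2ae, another H2A gene, had overlapping groups and was not called in p21 (log2 fold change 0.13, adjusted p = 0.814) or p16 cells (log2 fold change -0.25, adjusted p = 0.758).

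Hist1h2bc (chr13:23684199-23692908, plus strand, 2 exons), an H2B gene, had the highest level per kilobase of all histone genes tested, 27.9 CPM per kb in control, 80.9 in p21 and 45.7 in p16 cells. Its CPM was 31.4, 34.2 and 31.1 CPM in the control libraries, 99.8, 96.8 and 84.03 CPM in the p21 libraries and 54.6, 51.2 and 52.8 CPM in the p16 libraries. The 3 groups were widely separated. Hist1h2bc was 2.9-fold higher (log2 fold change 1.54 ± 0.0712 SE, adjusted p = 6.52e-06) in p21 and 1.64-fold higher (log2 fold change 0.71 ± 0.0704 SE, adjusted p = 0.00256) in p16 than in control cells, and 1.77-fold higher (log2 fold change 0.82 ± 0.07 SE, adjusted p = 0.000386) in p21 than in p16 cells. Its annotated main transcript is spliced to an exon downstream and holds no stem-loop. It starts 251 bases from the start of Hist1h2ac on the opposite strand, and the log2 fold changes of the pair were 1.54 and 1.55 in p21 cells and 0.71 and 1.01 in p16 cells.

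Hist1h2be was at 1.41, 0.714 and 1.21 CPM in the control libraries, 6.82, 5.01 and 4.94 CPM in the p21 libraries and 2.33, 2.04 and 2.49 CPM in the p16 libraries. Its p21 libraries were far above the rest, and its p16 libraries were above the controls. Hist1h2be was 5.02-fold higher (log2 fold change 2.33 ± 0.238 SE, adjusted p = 8.98e-05) in p21 and 2.05-fold higher (log2 fold change 1.04 ± 0.24 SE, adjusted p = 0.0331) in p16 than in control cells, with the overlap with Hist1h1e given above. Hist1h2bg was at 0.43, 0.453 and 0.377 CPM in the control libraries, 1.76, 1.14 and 1.31 CPM in the p21 libraries and 0.787, 0.763 and 0.799 CPM in the p16 libraries. Here too the groups did not overlap. Hist1h2bg was 3.34-fold higher (log2 fold change 1.74 ± 0.222 SE, adjusted p = 0.000302) in p21 and 1.86-fold higher (log2 fold change 0.89 ± 0.227 SE, adjusted p = 0.0448) in p16 than in control cells. In p16 cells the calls of Hist1h2be and Hist1h2bg were lost in 7 and 10 alternative fits, with adjusted p up to 0.0935 and 0.185, including each fit without 1 p16 library and those without control replicate 2 or 3, for Hist1h2bg also those without control replicate 1 or p21 replicate 3.

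Hist1h2bj was at 0.391, 0.302 and 0.474 CPM in the control libraries, 1.45, 1.08 and 1.23 CPM in the p21 libraries and 0.295, 0.513 and 0.465 CPM in the p16 libraries. The p16 libraries overlapped the controls and the p21 libraries lay above both. Hist1h2bj was 3.21-fold higher (log2 fold change 1.68 ± 0.272 SE, adjusted p = 0.00111) in p21 than in control cells, 2.93-fold higher (log2 fold change 1.55 ± 0.272 SE, adjusted p = 0.0075) in p21 than in p16 cells, and not called in p16 cells (log2 fold change 0.13, adjusted p = 0.831). Hist2h2be, from the chromosome 3 cluster, was at 1.43, 1.22 and 1.26 CPM in the control libraries, 1.29, 2.18 and 1.65 CPM in the p21 libraries and 1.56, 1.47 and 2.01 CPM in the p16 libraries. Its p21 libraries overlapped the controls and it was not called in p21 (log2 fold change 0.39, adjusted p = 0.186) or p16 cells (log2 fold change 0.36, adjusted p = 0.346). Of the other H2B genes tested, 2 were called higher in p21 cells, Hist1h2bb (log2 fold change 1.37, adjusted p = 0.0338) and Hist1h2bf (1.58, adjusted p = 0.0145), both singled out because their calls depended on libraries. The call of Hist1h2bb was lost without control replicate 1, control replicate 2 or p21 replicate 2 (adjusted p up to 0.148), and that of Hist1h2bf without p21 replicate 1 (adjusted p = 0.0596).

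Hist1h3b (chr13:23752267-23752886, plus strand, 1 exon), an H3 gene, had the largest fold change of all members. It was at 1.54, 1.09 and 1.06 CPM in the control libraries, 9.54, 10.97 and 8.42 CPM in the p21 libraries and 2.72, 3.2 and 2.81 CPM in the p16 libraries. The lowest p21 library was above the highest p16 library, and the lowest p16 library was above the highest control. Hist1h3b was 7.84-fold higher (log2 fold change 2.97 ± 0.171 SE, adjusted p = 8.82e-06) in p21 and 2.36-fold higher (log2 fold change 1.24 ± 0.171 SE, adjusted p = 0.00669) in p16 than in control cells, and 3.32-fold higher (log2 fold change 1.73 ± 0.16 SE, adjusted p = 0.000564) in p21 than in p16 cells. Its stem-loop is the common form shown above, its promoter window holds TATAAA and CCAAT, and its annotated end lies 51 bases past the stem-loop.

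Hist1h3d was at 0.574, 0.591 and 0.474 CPM in the control libraries, 1.98, 1.68 and 2.38 CPM in the p21 libraries and 0.819, 0.968 and 0.93 CPM in the p16 libraries. The 3 groups did not overlap. Hist1h3d was 3.67-fold higher (log2 fold change 1.88 ± 0.199 SE, adjusted p = 0.000108) in p21 cells, while its p16 difference was not called (log2 fold change 0.73, adjusted p = 0.0612). Hist1h3f was at 0.222, 0.192 and 0.195 CPM in the control libraries, 0.826, 0.76 and 0.525 CPM in the p21 libraries and 0.279, 0.117 and 0.262 CPM in the p16 libraries. The p16 and control libraries overlapped, and the p21 libraries were above them. Hist1h3f was 3.45-fold higher (log2 fold change 1.79 ± 0.347 SE, adjusted p = 0.00299) in p21 cells and not called in p16 cells (log2 fold change 0.10, adjusted p = 0.908). The fourth H3 gene to rise in p21 cells was Hist1h3i (2.64-fold, adjusted p = 0.00658). Hist1h3c did not follow this pattern: it was at 1.03, 0.962 and 1.06 CPM in the control libraries, 0.785, 1.3 and 0.928 CPM in the p21 libraries and 0.819, 0.689 and 0.567 CPM in the p16 libraries. Its control and p21 libraries overlapped (log2 fold change -0.02, adjusted p = 0.957), and all p16 libraries were below all controls without a call (log2 fold change -0.56, adjusted p = 0.186). Hist1h3g had overlapping groups and was not called in p21 cells (log2 fold change 0.12, adjusted p = 0.855).

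Hist1h4h (chr13:23531050-23531519, plus strand, 1 exon) was the H4 gene with the largest fold change. It was at 1.04, 0.783 and 0.865 CPM in the control libraries, 6.73, 4.85 and 5.02 CPM in the p21 libraries and 2.25, 1.86 and 1.73 CPM in the p16 libraries. The groups did not overlap, in the order control, p16, p21. Hist1h4h was 6.16-fold higher (log2 fold change 2.62 ± 0.188 SE, adjusted p = 1.66e-05) in p21 and 2.16-fold higher (log2 fold change 1.11 ± 0.19 SE, adjusted p = 0.0118) in p16 than in control cells, and 2.85-fold higher (log2 fold change 1.51 ± 0.177 SE, adjusted p = 0.00131) in p21 than in p16 cells. Hist1h4i (chr13:22040636-22041362, minus strand) was the H4 gene with the most counts. It was at 4.99, 4.03 and 4.0 CPM in the control libraries, 5.78, 5.84 and 5.16 CPM in the p21 libraries and 4.39, 4.17 and 3.62 CPM in the p16 libraries. The p21 libraries lay just above the controls, and the p16 libraries overlapped the controls. Hist1h4i was 1.29-fold higher (log2 fold change 0.37 ± 0.125 SE, adjusted p = 0.041) in p21 cells, a call lost in 8 of 17 alternatives (adjusted p up to 0.126), among them scaling by library size alone and the fits without control replicate 2 or 3, p21 replicate 1 or 2, or p16 replicate 2. Per kilobase of annotated exon Hist1h4i was at 5.97 CPM per kb in control and 7.70 in p21 cells, and Hist1h4h at 1.91 and 11.8. Their order per kilobase thus differed between the groups and rests on the annotated lengths (727 and 470 bases). By mean CPM Hist1h4i was above Hist1h4h in both, with 4.34 against 0.897 in control and 5.60 against 5.54 in p21 cells.

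Hist1h4a was at 0.613, 0.371 and 0.446 CPM in the control libraries, 1.85, 1.2 and 0.875 CPM in the p21 libraries and 0.59, 0.557 and 0.756 CPM in the p16 libraries. Its p21 libraries were above the controls, with p16 overlapping the controls. Hist1h4a was 2.74-fold higher (log2 fold change 1.46 ± 0.316 SE, adjusted p = 0.00531) in p21 cells. Hist1h4b (chr13:23757013-23757409, plus strand, 1 exon), which lies between Hist1h3b and Hist1h4a in the same cluster, went the other way. It was at 0.235, 0.289 and 0.335 CPM in the control libraries, 0.0826, 0.117 and 0.123 CPM in the p21 libraries and 0.0656, 0.191 and 0.174 CPM in the p16 libraries. All p21 and all p16 libraries were below all controls. Hist1h4b was 2.65-fold lower (log2 fold change -1.41 ± 0.423 SE, adjusted p = 0.0248) in p21 cells, the single one of the 36 genes called lower, and was not called in p16 cells (log2 fold change -0.97, adjusted p = 0.176). The call in p21 cells was lost without control replicate 2, control replicate 3, p21 replicate 1, p21 replicate 2 or replicate 3 of every group, with adjusted p up to 0.108. Of the 50-base windows of the transcripts of Hist1h4b, 75.9% also occur in transcripts of other genes. Hist1h4c was not called in p21 (log2 fold change 0.44, adjusted p = 0.621) or p16 cells (log2 fold change -0.35, adjusted p = 0.812).

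**Figure D3:**
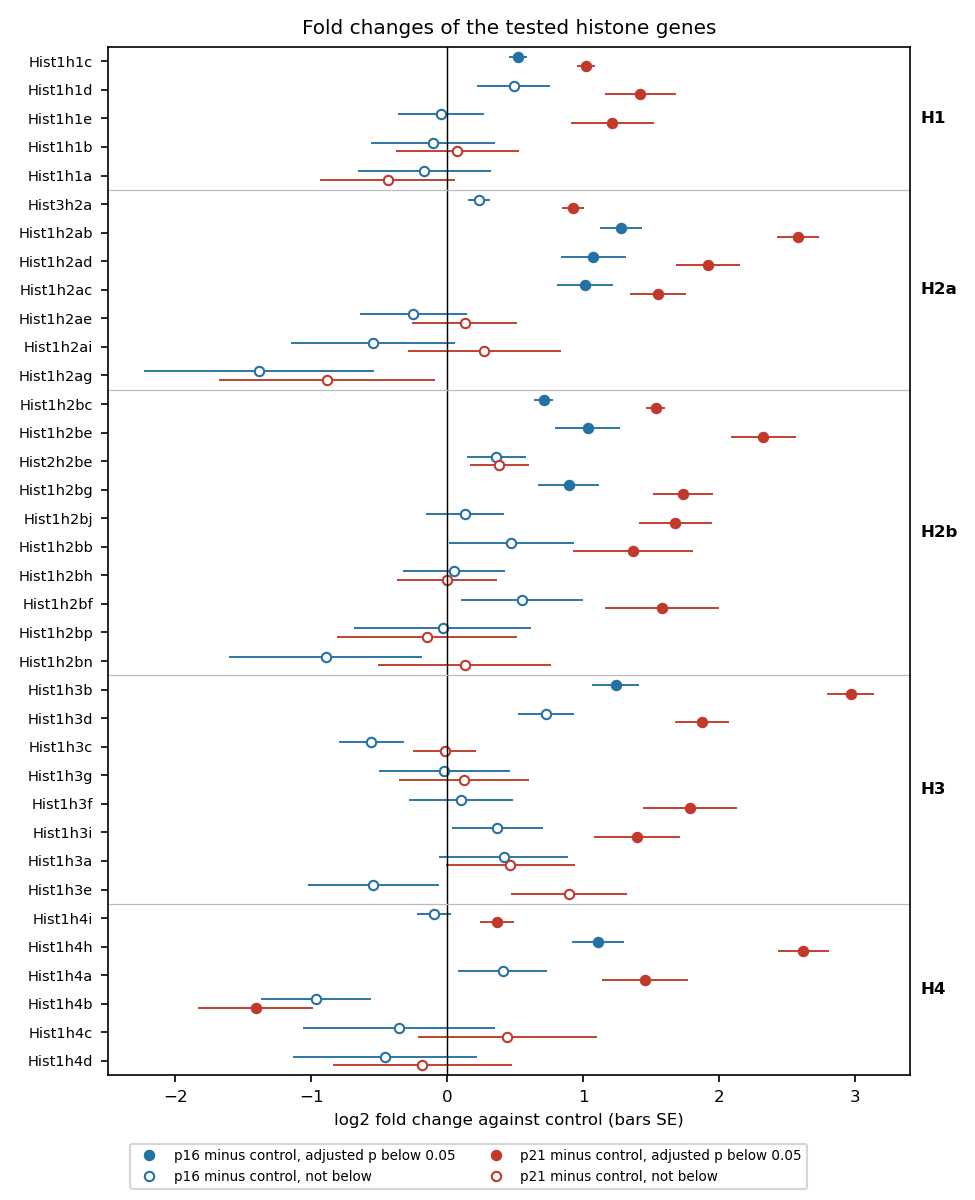
Log2 fold change against control (horizontal axis) of each tested histone gene in p16 (blue) and p21 cells (red) with SE bars; filled points have an adjusted p below 0.05 by edgeR's quasi-likelihood test. Filled red points run from -1.41 for Hist1h4b to 2.97 for Hist1h3b, and the filled blue points from 0.52 for Hist1h1c to 1.28 for Hist1h2ab.

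By position, most of the tested genes, and with them most of the calls, lay in a single cluster. Over all genes 19.3% were called higher in p21, 3.57% in p16 and 6.19% in p21 against p16 cells. The 31 members at chr13:23531050-23934851 included 26 tested genes, of which 16 were higher and 1 lower in p21 cells, 9 higher in p16 cells and 12 higher in p21 than in p16 cells. Their median log2 fold change was 1.39 in p21 and 0.44 in p16 cells. The 23 members at chr13:21715763-22043676 included 8 tested genes, of which 3 were higher in p21 cells (Hist1h2bj, Hist1h3i and Hist1h4i) and none in p16 cells, with medians of 0.20 and -0.10. On chromosome 3, 1 of 10 members was tested (Hist2h2be), on chromosome 11, 1 of 3 (Hist3h2a), and on chromosome 6, 0 of 1. The difference between the clusters was not tested.

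H2a and H2b genes often lie head to head, and 13 such pairs had annotated starts at most 500 bases apart. The pairs include Hist3h2a with the pseudogene Hist3h2bb-ps. In 4 pairs both genes were tested. Single genes called higher in p21 cells were 20 of the 36 members tested and 19.3% of all genes. In p16 cells they were 9 of the 36 and 3.57%. Pairs among all genes were not counted. Hist1h2ac and Hist1h2bc both rose in p21 cells, as did Hist1h2ad and Hist1h2bf (log2 fold changes 1.92 and 1.58). In the other pairs 1 partner was called: Hist1h2bg rose by 1.74 while Hist1h2ae was at 0.13, and Hist1h2bj rose by 1.68 while Hist1h2ag was at -0.88 without a call (adjusted p = 0.406). In p21 cells both partners were thus called in 2 of the 4 pairs. In p16 cells both were called in 1 pair, Hist1h2ac and Hist1h2bc, while Hist1h2ad (1.08) and Hist1h2bg (0.89) rose without a call for Hist1h2bf (0.55) and Hist1h2ae (-0.25), and neither Hist1h2ag nor Hist1h2bj was called.

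The annotated 3′ ends were compared because the kit, from general knowledge, selects poly(A) tails. The shares of all genes called in p21 cells were 19.3% higher and 20.7% lower. Of 12 tested genes whose transcript ends within 100 bases of the stem-loop, 7 were higher and 1 lower in p21 cells, with a median log2 fold change of 1.47. Of 16 whose transcript runs more than 100 bases past it, 11 were higher, with a median of 1.12. Of 7 with no stem-loop in the annotated transcript, 2 were higher (Hist1h2bc and Hist1h3i), with a median of 0.27. The medians in p16 cells were 0.44, 0.17 and -0.10 in the same order. No test was made between these small groups. Hist1h2bp, with a stem-loop in another transcript only, is in none of them and was not called. Among the genes with no annotated stem-loop, Hist1h2ai, Hist1h2bn, Hist1h3i, Hist1h1b and Hist1h1a have 1-exon transcripts of 393, 381, 411, 743 and 741 bases. Sequence past these ends was not searched, so the genes may hold a stem-loop there. Annotated ends do not show which ends these cells used.

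Near-identical copies limit how far single members can be told apart. A median of 43.7% of the 50-base windows of a tested member also occurred in transcripts of other genes, with a range of 0% to 90.1%, against a median of 78.5% for the members under the filter. Among the 20 genes called higher in p21 cells the median was 40.2%, and among the other 16 tested genes 45.6%. The highest shares in these sets were 87.6% (Hist1h3i) and 90.1% (Hist1h2ai). More than 50% was shared at 6 of the 20 and 6 of the 16. The setting for reads with several matches is not stated in the labels, nor is strandedness. Hist1h1c shared 8.54% of its windows, Hist1h2ac 14.1%, Hist1h2bc 30.6%, Hist1h2ab 58.0% and Hist1h3b 60.4%, so the values of the last 2 are the less certain of these.

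Genes listed for the transcription, processing or decay of histone mRNA were mostly lower in p21 cells. Of 21 such genes 11 fell and 3 rose (Ncbp2, Lsm10 and Zcchc6), with a median log2 fold change of -0.25. In p16 cells 1 of the 21 fell (Cstf2), with a median of -0.065. Over all genes 20.7% were called lower and 19.3% higher in p21 cells, and 3.65% lower in p16 cells. Slbp, which encodes the stem-loop binding protein, was at 42.4, 39.02 and 35.4 CPM in the control libraries, 26.4, 32.00 and 29.5 CPM in the p21 libraries and 35.3, 34.9 and 33.7 CPM in the p16 libraries. All p21 libraries were below all controls, and all p16 libraries were too. Slbp was 1.33-fold lower (log2 fold change -0.41 ± 0.0811 SE, adjusted p = 0.00325) in p21 cells and was not called in p16 cells (log2 fold change -0.17, adjusted p = 0.233). Npat, which encodes a coactivator of histone gene transcription, was 1.22-fold lower (log2 fold change -0.28 ± 0.0634 SE, adjusted p = 0.0063) in p21 cells. Casp8ap2, whose protein is needed for histone mRNA production, was 1.47-fold lower (log2 fold change -0.56 ± 0.0654 SE, adjusted p = 0.000187). Cstf2, a 3′ end processing factor gene, fell by 0.54 (adjusted p = 0.000146), Eri1, an exonuclease gene of histone mRNA decay, by 0.50 (adjusted p = 0.000846) and Zcchc11, a uridylyltransferase gene, by 0.77 (adjusted p = 0.000995) on the log2 scale.

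Replacement variants, histones whose making is not confined to S phase and whose mRNAs are mostly polyadenylated, went mostly down. Of 11 genes 10 fell and 1 rose in p21 cells, with a median of -0.69, and 6 fell in p16 cells, with a median of -0.29. The shares of all genes called lower were 20.7% in p21 and 3.65% in p16 cells. Cenpa, the centromeric H3 variant gene, was at 57.3, 52.5 and 49.6 CPM in the control libraries, 21.4, 24.2 and 24.3 CPM in the p21 libraries and 43.01, 40.99 and 40.8 CPM in the p16 libraries. The groups did not overlap, and the order was control, p16, p21 from high to low. Cenpa was 2.28-fold lower (log2 fold change -1.19 ± 0.0688 SE, adjusted p = 8.82e-06) in p21 cells. H2afz, the H2A.Z gene, was 1.82-fold lower (log2 fold change -0.86 ± 0.063 SE, adjusted p = 1.71e-05), and H3f3b, an H3.3 gene, 1.33-fold lower (log2 fold change -0.41 ± 0.0398 SE, adjusted p = 6.34e-05). H2afx, whose phosphorylated protein marks DNA breaks and whose mRNA can end in a stem-loop or a poly(A) tail, was 1.4-fold lower (log2 fold change -0.49 ± 0.0546 SE, adjusted p = 0.000148). The variant gene that rose was H2afj (log2 fold change 0.37, adjusted p = 0.0101).

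Histone chaperone and S phase genes were also lower, in comparisons that called 20.7% of all genes lower in p21 and 3.65% in p16 cells. Of 19 chaperone genes 17 fell in p21 cells (median -0.36), and 3 fell in p16 cells (median -0.21). Nasp, an H1 and H3-H4 chaperone gene, was 1.71-fold lower (log2 fold change -0.77 ± 0.089 SE, adjusted p = 0.000172) in p21 cells, and Anp32e, a chaperone gene for H2A.Z, was 1.67-fold lower (log2 fold change -0.74 ± 0.0565 SE, adjusted p = 2.08e-05). Hira, for the H3.3 chaperone, fell by 0.44 (adjusted p = 0.000306) and Asf1b, for an H3-H4 chaperone, by 1.01 (adjusted p = 0.000335). Of 24 S phase genes 21 fell in p21 cells (median -0.74), and 9 fell in p16 cells (median -0.31). Ccna2, the cyclin A gene, was 2.28-fold lower (log2 fold change -1.19 ± 0.0739 SE, adjusted p = 1.10e-05) in p21 cells. Cdc45, Lig1 and Prim1, for a helicase factor, a DNA ligase and a primase subunit, fell by 0.94, 0.93 and 0.89 on the log2 scale, with adjusted p of 2.43e-05, 2.84e-05 and 6.70e-05. In the p21 minus p16 contrast 16 of the S phase genes were lower, where 15 histone genes were higher. That contrast called 6.64% of all genes lower and 6.19% higher.

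**Figure D4:**
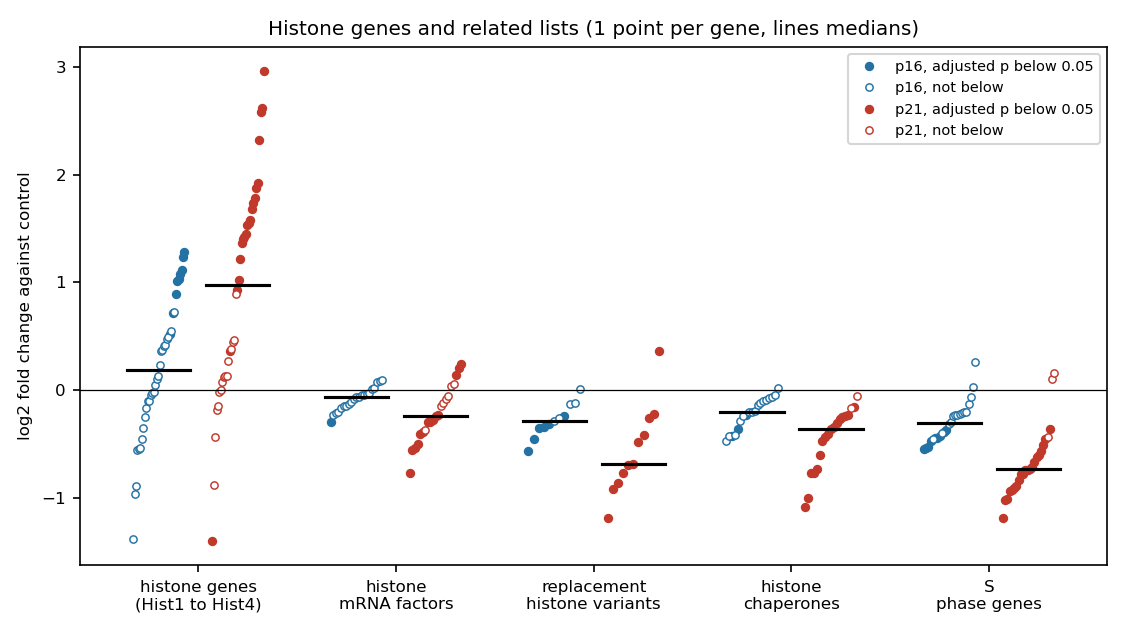
Log2 fold change against control (vertical axis) of the tested histone genes and of 4 related gene lists, 1 point per gene, p16 in blue and p21 in red, filled where the adjusted p is below 0.05 by edgeR's quasi-likelihood test, with black lines at the medians. The p21 medians are 0.97 for the histone genes and -0.25, -0.69, -0.36 and -0.74 for the mRNA factors, replacement variants, chaperones and S phase genes.

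Markers of other cell types were read in the same libraries. The shares of all genes called higher were 19.3% in p21, 3.57% in p16 and 6.19% in p21 against p16 cells. Of the 16 macrophage markers measured, 11 were higher in p21 cells and 10 in p21 against p16 cells. In p16 cells 0 of the 16 were called (0 higher and 1 lower at an unadjusted p below 0.05 in edgeR, 0 called by DESeq2). Their summed level was 14.77 to 18.05 CPM in control, 29.2 to 52.2 CPM in p21 and 12.2 to 17.0 CPM in p16 libraries, and none of the 16 was at 0 in every library. Of 7 skeletal muscle markers 3 were tested and 2 were higher in both p21 and p16 cells, with summed levels of 177 to 216, 492 to 596 and 347 to 366 CPM and Myf5 at 0 throughout. Endothelial markers summed to 3.96 to 5.53, 5.38 to 7.84 and 5.64 to 7.63 CPM, and epithelial and neural sums overlapped between groups. Their part in the histone values was not tested.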

How the data were processed

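The values are raw counts of reads for each gene, as deposited. The submitters' processing notes name Bowtie2 2.2.6, TopHat2 2.0.14, featureCounts 1.4.6 and Subread, with build mm10. Their gene models, strandedness and handling of multi-mapping reads are not stated in the labels. Per the labels' protocols, the libraries were made with the TruSeq RNA kit version 2. Groups and replicate numbers come from the sample titles. Genes were kept by filterByExpr with the groups given, and 14572 genes were tested in 1 fit of 3 group means to 9 libraries with edgeR 4.0.16 (R 4.3.3, TMM, quasi-likelihood F test, Benjamini-Hochberg over all genes tested, threshold 0.05). The SE was taken as the absolute log2 fold change over the square root of F. Alternatives were other scalings, filters and fits, DESeq2 1.42.0, and leaving out libraries, including replicate 3 of every group, which was chosen after seeing the data. The fits were tested on simulated data. Libraries of a group differed beyond sampling noise (chi-square per degree of freedom 10.4 to 101). As a check of pairing, same-numbered libraries were compared in how far they lay from their group means: the correlations were 0.25, 0.11 and 0.55 for p16 and control and 0.16, 0.29 and 0.48 for p21 and p16, all above the limit of 0.1 for taking the numbers as pairs. For p21 and control they correlated at 0.18, 0.025 and 0.49, not all above it. Differently numbered libraries correlated at -0.45 to 0.30 for p16 and control and -0.35 to 0.14 for p21 and p16. For p21 and control the range was -0.46 to 0.36. Replicate 2 of p16 and of p21 correlated more with control replicate 1 (0.30 and 0.36) than with control replicate 2. Any pairing by number comes from the data alone, and the reported fit holds no block. Positions, transcripts and exon lengths are from GENCODE M21 (all 68 symbols matched) and promoters from RefSeq, GRCm38.p6. The stem-loop was searched by its conserved 16 bases. The members and lists were chosen with earlier results of these data known. Genes named are Cdkn1a, Cdkn2a, the 5 members of each class with the highest mean CPM, members called against the main direction, and up to 4 genes per list by lowest adjusted p in p21 cells, with Slbp, Npat and H2afx added; others were named after their values were seen.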

Additional observations from a re-analysis of the deposited data

How the results depend on the processing

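The counts of histone genes called were 21 for p21 minus control, 9 for p16 minus control and 15 for p21 minus p16. DESeq2 size factors gave 21, 9 and 15, library size alone 20, 9 and 15, no low-count filter 22, 8 and 16, and DESeq2 itself 22, 10 and 16. Of all genes DESeq2 called 6090, 1820 and 2572. A filter of 1 CPM in 3 libraries left 14 members and 12, 8 and 12 calls, since fewer genes were tested. With the 6 libraries compared alone the counts were 20, 5 and 15, and without replicate 3 of every group 18, 5 and 13. Over all genes these fits called 5076, 555 and 2122, and 5481, 593 and 1804. The reported fit called 5820, 1052 and 1870 of all genes. Leaving out 1 library at a time gave 18 to 21, 5 to 9 and 9 to 16 calls. Over all genes it gave 4224 to 5788, 222 to 949 and 600 to 2464. The histone calls of p16 minus control fell to 5 without control replicate 2 or any p16 library. Those of p21 minus p16 fell to 9 without p21 replicate 1. With the replicate number as a block the counts were 21, 9 and 18, and over all genes 7241, 2473 and 3496. The block added the calls of Hist1h3e, Hist1h3i and Hist1h4a in p21 minus p16 and of 4 other named genes. These were Asf1b, Cdkn1a and Zcchc11 in p16 minus control (adjusted p = 0.0371, 0.0308 and 0.0306 in edgeR, log2 fold changes -0.41, 0.20 and -0.23) and Slbp in p21 minus p16 (0.0403, -0.24). The block changed no other call of a member or named gene. DESeq2 called 6 chaperone genes lower in p16 cells, against 3 by edgeR.

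The log2 folds of the class sums depended on their most abundant members. For p21 minus control, the median of the tested members was 0.93 for H2a, 1.15 for H3 and 0.41 for H4, against sums of 1.33, 1.88 and 0.94. Without the most abundant member the sums were 1.90 for H2a, 1.37 for H2b (1.52 with it), 0.90 for H3 and 1.59 for H4. For p16 minus control, the median was -0.046 for H1, the opposite sign to its sum of 0.50, and -0.23 for H4 (sum 0.10), with 0.24 for H2a, 0.42 for H2b and 0.24 for H3 (sums 0.45, 0.69 and 0.51). Without the most abundant member the sums were 0.16, 0.79, 0.49, 0.016 and 0.39 for H1, H2a, H2b, H3 and H4. For p21 minus p16, the medians were 0.69, 1.09 and 0.63 for H2a, H3 and H4 (sums 0.88, 1.37 and 0.84), and the sums without the most abundant member 0.85, 1.10, 0.88 and 1.20 for H1, H2a, H3 and H4. The cause was not tested beyond the leaving out of these members. The low-count filter kept 32 of the 68 members out of the reported fit; the 22 calls without the filter and by DESeq2 were 20 higher and 2 lower, the second lower gene being Hist3h2ba. The 8 members with no count in any library could not be tested.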
